A study of Mus musculus with 18 samples.

Results

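Osteoblast-lineage cells of the perinatal mouse bone marrow were followed from E16.5 through E18.5 to P0 in single-cell RNA and antibody-tag libraries of CD45-Ter119- stromal cells. A cell was taken when it held at least 3 UMIs summed over Runx2 and Sp7, at least 1 of them from Sp7, and more UMIs of Col1a1 than of Col2a1. This gave 49 of 8226 cells at E16.5, 43 of 6642 at E18.5 and 50 of 14084 at P0, together 142 of 28952 perinatal stromal cells in a series of 56201 cells. A UMI, or unique molecular identifier, marks 1 captured transcript. All mice were labelled C57B6/J, and no allele or treatment was given for any group. The adult stromal library, in which 243 of 6267 cells met the same conditions, served as a comparator. Perinatal cells came from crushed and collagenase-digested skeletons without the head, and adult cells from tibias, femurs, pelvic bones and spines, so age and the bones taken cannot be told apart between them.

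Each stage was 1 library of cells pooled from several mice. Stage and library therefore cannot be told apart, no difference between stages was tested, and no p-value is given. Levels are given as CPM, the UMIs of a gene summed over a group of cells per 1000000 UMIs of that group. Intervals of levels are exact Poisson intervals at 95%, those of shares are Clopper-Pearson intervals at 95%, and both cover counting error only. Where 3 values stand in a row, they belong to E16.5, E18.5 and P0 in that order, unless stated otherwise. A sum over cells cannot tell a change in every cell from a change in which cells are present.

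Bone-forming cells descend from mesenchymal progenitors in which RUNX2 and then SP7 (osterix) become active. They first deposit a matrix rich in type I collagen and express alkaline phosphatase, next add acidic proteins such as bone sialoprotein and osteopontin, and produce osteocalcin late. Some are buried in the matrix and become osteocytes, which express Dmp1 and later Sost. In the limbs and trunk most bones are laid down on a cartilage model, so cartilage and bone cells lie side by side before birth.

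The osteoblast-lineage cells were deeper than the average stromal cell. Their median UMI count was 15590 at E16.5, 21884 at E18.5 and 18071 at P0, against 12895, 15590.5 and 13612.5 over all stromal cells of the library. The share of stromal cells that met the conditions was 0.596% (0.441 to 0.787) at E16.5, 0.647% (0.469 to 0.871) at E18.5 and 0.355% (0.264 to 0.468) at P0. The adult share was 3.88% (3.41 to 4.39). These shares rest on depth, since Sp7 had a median of 1 UMI per chosen cell at each perinatal stage and at most 8. At a uniform depth of 2000 UMIs, reached by random thinning, the conditions were met by 1, 1 and 2 cells at E16.5, E18.5 and P0, and by 25 in the adult. At that depth an Sp7 UMI was seen in 1.06%, 1.48% and 0.788% of the other stromal cells and in 0 of 86, 0 of 93 and 0 of 214 endothelial cells, where the intervals allow up to 4.20%, 3.89% and 1.71%. In the adult library it was seen in 3.27% of the other stromal cells and in 7 of 609 endothelial cells (1.15%).

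Of the chosen cells, 10, 12 and 14 at E16.5, E18.5 and P0 held exactly 3 UMIs of Runx2 and Sp7, and a further 17, 20 and 9 cells lay 1 UMI below. The condition on collagens removed more: 346, 407 and 372 cells had enough Runx2 and Sp7 UMIs but no more Col1a1 than Col2a1 UMIs. The chosen cell closest to that limit held 5 Col1a1 and 4 Col2a1 UMIs at E16.5, 512 and 492 at E18.5, and 37 and 3 at P0. In 4 of the 142 cells Col2a1, the type II collagen of cartilage, exceeded 250 UMIs. Of 35079 stromal barcodes, 136 occurred in more than 1 library, and 2 of these belonged to chosen perinatal cells.

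In the deposited clustering the cells were not spread over the stroma. The cluster coded F2 held 45 of 49 cells at E16.5, 41 of 43 at E18.5 and 45 of 50 at P0, and they made up 7.03%, 5.89% and 4.77% of its cells. The cluster coded C5 held 2 cells at E16.5 and 2 at P0. In the adult library 163 of the 243 cells lay in the cluster coded Osteo and 50 in the one coded CARs. Because F2 held most of the perinatal cells, its remaining cells were added as the nearest comparison after the data had been seen.

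Markers of blood and endothelial cells were low, with single-cell exceptions, whereas those of tendon and 1 gene of the osteoclast list were not. The sort left out cells with CD45 or Ter119, and blood markers were low in the other stromal cells too. Ptprc, which encodes CD45, was at 0 in all 3 stages. The leukocyte list of 6 genes summed to 0, 2 and 2 UMIs. That is 0, 2.18 and 2.07 CPM, against 1.34, 1.81 and 4.51 CPM in the other stromal cells. The endothelial list of 5 genes summed to 1, 4 and 52 UMIs, and at P0 all 52 came from 1 cell, which lay in the cluster coded ECs. The erythroid list of 6 genes reached 100 UMIs at E16.5, 96 of them in 1 cell. Leaving out cells with 2 or more UMIs of the endothelial, leukocyte, muscle or Schwann cell lists removed 0, 1 and 5 cells. The tendon list of 4 genes stood at 145, 171 and 270 CPM in 29, 28 and 33 cells, against the 183, 150 and 262 CPM of the other stromal cells and below the 589, 1325 and 595 CPM of the other F2 cells. The pericyte list of 5 genes stood at 49.6, 174 and 153 CPM, below the 279, 387 and 415 CPM of the other stromal cells. The osteoclast list of 5 genes stood at 117, 185 and 309 CPM, above the 55.3, 62.0 and 101.2 CPM of the other stromal cells and below the 263, 276 and 409 CPM of the other F2 cells, most of it from Ctsk, the protease cathepsin K, at 90.7, 170.4 and 299.7 CPM, while Ocstamp and Atp6v0d2 were at 0 at each stage. The chondrocyte list of 13 genes stood at 1277, 3600 and 3923 CPM, against 22261, 54159 and 44658 CPM in the other stromal cells. That sum includes Col2a1, part of the choice, at 11701 CPM at E16.5 and 28668 CPM at P0 in the other stromal cells.

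Most transcription factors of the lineage, like most genes, stayed within 2-fold between E16.5 and P0. Runx2 and Sp7 were part of the choice, and their levels are descriptions only: Runx2 was 221, 181 and 234 CPM and Sp7 100.4, 91.7 and 84.0 CPM. Dlx5, a homeodomain activator of the lineage, was 106, 56.8 and 76.7 CPM, with UMIs in 34, 27 and 36 cells. Dlx6, its neighbour in the genome, was 26.6, 39.3 and 35.3 CPM. Twist1, a bHLH factor that restrains RUNX2, was 273, 229 and 296 CPM. Of the 6 further factors with enough counts (8 reported besides Runx2 and Sp7), 0 were 2-fold higher at P0 than at E16.5 and 1 was lower, Twist2, beside 8.21% and 7.64% of 5749 genes. The median ratio over those 5749 genes was 0.921 (-0.12 on the log2 scale), and the median over the 6 factors was 1.05. Twist2 rested on few cells, since 1 cell held 59.2% of its E16.5 UMIs.

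Tcf7, a transcription factor of the Wnt pathway, was 30.2, 30.6 and 18.7 CPM against 1.71, 1.91 and 2.05 CPM in the other cells. These levels rest on 25, 28 and 18 UMIs, so that Tcf7 fell short of the 20 counts asked for at P0 and is not among the genes counted as different. Of the Wnt list (7 listed), 3 genes were tested against the other stromal cells. In all 3 libraries 0 were at least 2-fold higher and 1 was lower, Sfrp1, a secreted inhibitor, beside 3.3% and 3.75% of 4883 genes. The median ratio over the 3 tested genes was 0.457.

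**Figure D1:**
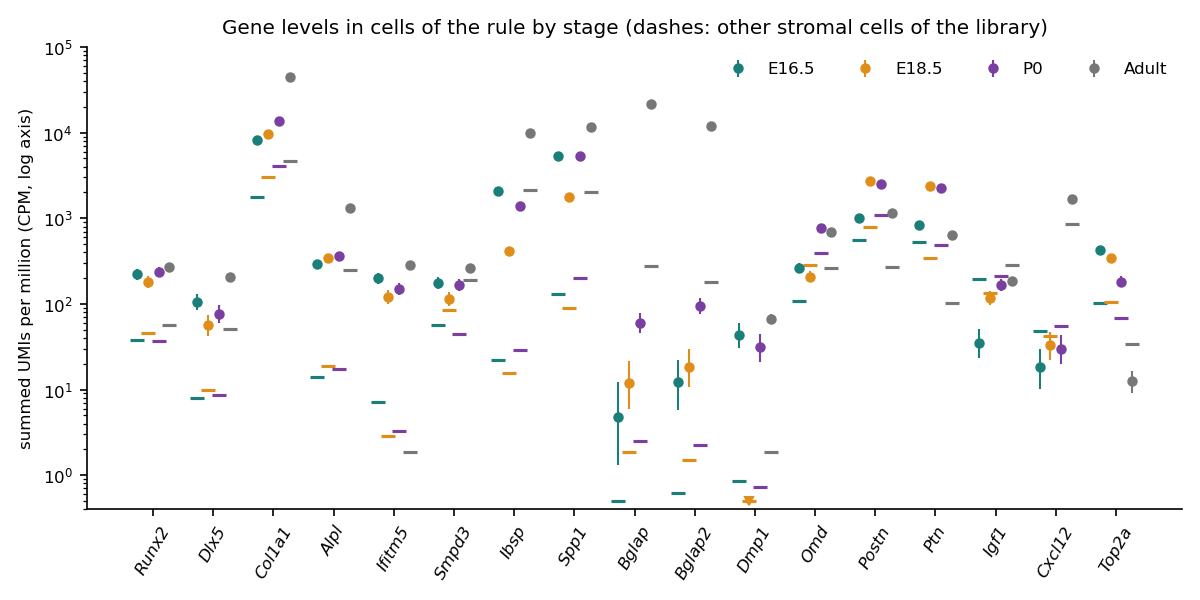
Levels of 17 genes in the cells chosen by Runx2, Sp7 and the collagens, as CPM on a log axis, with exact Poisson 95% intervals (points; a triangle at the lower edge marks a count of 0), and in the other stromal cells of each library (dashes, drawn at 0.5 where lower). Bglap and Bglap2 lie far below the adult at each perinatal stage. Runx2 and Col1a1 were part of the choice, and Runx2 lies within 181 to 267 CPM in all 4 libraries.

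Type I collagen was higher at P0 than at E16.5 in the chosen cells and in the rest of the stroma alike. Col1a2, which the choice did not use, was 1.71-fold in the chosen cells and 2.10-fold in the others. Col1a1, part of the choice, was 8154, 9739.6 and 13797 CPM and 44612 CPM in the adult cells. In the other stromal cells it was 1794, 3006 and 4031 CPM. Of 14 further genes for collagen and its processing, 2 were at least 2-fold higher at P0 than at E16.5 and 0 lower, a share near the 8.21% and 7.64% of all genes, with a median ratio of 1.43. The 2 were Col13a1, a transmembrane collagen, at 21.8, 73.2 and 44.6 CPM, and Plod2, a lysyl hydroxylase, at 105, 244 and 216 CPM. Lox, which crosslinks collagen, was 312, 519 and 558 CPM in the chosen cells and 66.5, 90.7 and 113 CPM in the other cells. The other F2 cells had 266, 395 and 364 CPM. The secretory list of 10 genes of the endoplasmic reticulum and its vesicles had 0 genes past 2-fold in either direction, with a median of 0.803.

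Ifitm5, a membrane protein found mainly in osteoblasts, was 199.6, 121 and 150.3 CPM, against 7.23, 2.83 and 3.26 CPM in the other stromal cells. Its UMIs lay in 16, 15 and 11 cells, and the cell with most of them held 27.9%, 23.4% and 36.6%. It had the largest lowest ratio to the other stromal cells over the 3 libraries, 27.6-fold, of all genes with at least 100 CPM in each.

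Alkaline phosphatase was spread over most of the chosen cells. Alpl was 289, 344 and 367 CPM, in 40 of 49, 36 of 43 and 40 of 50 cells, and the top cell held at most 7.95% of its UMIs. Other stromal cells had 14.2, 18.6 and 17.4 CPM, and other F2 cells lay 5.05-fold to 6.46-fold below the chosen cells. In the adult cells it reached 1319 CPM. Alpl played no part in the choice, and these values describe how the chosen cells differ from the rest without a test.

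Bone sialoprotein and osteopontin were in contrast carried by few cells. Ibsp, which encodes bone sialoprotein, was 2104, 412 and 1403 CPM, with UMIs in 15, 7 and 14 cells. A single cell held 59.7% of them at E16.5, 68.4% at E18.5 and 47.1% at P0, and without that cell the levels were 866, 134 and 775 CPM. Spp1, which encodes osteopontin, was 5353, 1765 and 5318 CPM, with UMIs in 30, 19 and 32 cells. Its top cell held 33.9% of them at E16.5 and 38.4% at P0. Without the top cell of each stage the levels were 3596, 58.6 and 3377 CPM. At E18.5 1 cell held 96.8% of the Spp1 UMIs, and the remaining 42 cells lay below the 89.7 CPM of the other stromal cells. There was 1 cell with 1000 or more Spp1 UMIs at E18.5, and there were 3 at each other stage. With or without its top cell, E18.5 had the lowest level of both genes.

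Osteocalcin was close to absent before birth. Bglap was 4.84, 12.0 and 60.1 CPM, that is 4, 11 and 58 UMIs, and 21466 CPM in the adult cells, 357-fold the P0 level. Bglap2 was 12.1, 18.6 and 94.4 CPM and 12009 CPM in the adult cells. At P0 the UMIs of Bglap lay in 14 cells and those of Bglap2 in 13. The annotated transcripts of Bglap and Bglap2 are identical at 98.6% of 440 aligned bases, so the level of each is uncertain. Reads that matched both may have been assigned to either or left out of the counts. In the other stromal cells both were under 3 CPM at each stage, and their P0 to E16.5 ratios there were 6.51 and 3.72, against 12.4 and 7.80 in the chosen cells.

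The genes for these proteins lie in groups on the genome. In GRCm38, Bglap is at chr3:88383501-88384464, on the minus strand beside Bglap2 at chr3:88377736-88378699, and Dmp1, Ibsp, Mepe and Spp1 follow each other on chr5, from 104202613 to 104441050. Promoters of 3 genes are shown because RUNX2 is known to act on each of these genes. They are the 250 bases before the RefSeq start (GRCm38.p6), 5′ to 3′ on the gene's strand, with the RUNX core ACCACA in capitals, 132, 128 and 118 bases before the start.
Bglap, chr3:88384467-88384716, minus strand: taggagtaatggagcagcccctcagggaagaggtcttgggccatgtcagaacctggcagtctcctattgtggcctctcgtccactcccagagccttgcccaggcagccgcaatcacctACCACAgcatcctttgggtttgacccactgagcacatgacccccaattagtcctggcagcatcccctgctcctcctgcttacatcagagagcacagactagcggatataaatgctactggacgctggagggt
Spp1, chr5:104434861-104435110, plus strand: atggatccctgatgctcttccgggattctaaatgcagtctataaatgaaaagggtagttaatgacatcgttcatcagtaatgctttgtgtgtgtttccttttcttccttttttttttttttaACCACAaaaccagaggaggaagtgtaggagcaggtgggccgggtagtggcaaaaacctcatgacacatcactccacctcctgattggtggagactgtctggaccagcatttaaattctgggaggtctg
Mmp13, chr9:7272264-7272513, plus strand: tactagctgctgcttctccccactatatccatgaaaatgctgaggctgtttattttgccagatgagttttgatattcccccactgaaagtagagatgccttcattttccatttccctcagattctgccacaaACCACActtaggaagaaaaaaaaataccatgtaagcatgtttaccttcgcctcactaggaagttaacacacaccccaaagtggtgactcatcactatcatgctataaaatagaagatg
Each window holds 1 copy, and a window was shown only where it held a match. The collagen, mineral and osteocyte lists with Mmp13 had 34 windows, from 27 genes, and the other genes of these lists had none. The 6 letters ACCACA or their reverse complement TGTGGT occur in 9 of those 34 windows, and in 14.0% of 32817 windows over all genes. These letters are short, and a match is no measurement of binding.

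Of the 13 mineral matrix genes with enough counts (16 listed), 7 were at least 2-fold higher at P0 than at E16.5 and 0 lower, beside 8.21% and 7.64% of all genes, with a median ratio of 2.02. They were Bglap, Bglap2, the phosphate transporter Slc20a2, and Sparc, Mgp, Omd and Bgn. The last 4 also belong to cartilage or connective tissue, and they were as much or more higher in the other stromal cells of the same libraries: Sparc was 2.22-fold in the chosen cells and 2.62-fold in the others, Mgp 2.02-fold and 2.80-fold, Omd 2.97-fold and 3.58-fold, and Bgn 2.11-fold and 2.85-fold. The chondrocyte list without Col2a1 had 6 of 12 genes at least 2-fold higher (all genes 8.21%) and a median of 2.04 in the chosen cells. Col2a1, part of the choice, was 4.74-fold in them and 2.45-fold in the others. The part that cartilage RNA plays in these ratios was not tested.

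The adult cells stood higher still. Of 15 mineral genes with enough counts, 11 were at least 2-fold higher in the adult than at P0 and 0 lower, beside 19.4% and 6.31% of 9953 genes. Sparc, osteonectin, was 8289.9 CPM at P0 and 42108 CPM in the adult cells. Ank, a membrane exporter that raises extracellular pyrophosphate, was 28.0 and 167 CPM. Summed, the mineral list was 19820 CPM at P0 and 105232 CPM in the adult, against 21593 and 50454 CPM in the other stromal cells. In those cells Ibsp went from 28.6 to 2160 CPM, Spp1 from 199.7 to 2013 and Alpl from 17.4 to 247. The chosen cells had smaller ratios, 7.01, 2.20 and 3.59. After thinning, Ibsp was seen in 53 of 604 adult endothelial cells (8.77%) and in 0 of 213 at P0. The part that RNA from other cells plays in the adult levels was not tested.

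The defining osteocyte genes were rare or not detected. Dmp1 was 43.5, 0 and 31.1 CPM, from 2, 0 and 4 cells, and the interval at E18.5 allows up to 4.03 CPM. A single cell held 80.6% of its E16.5 and 83.3% of its P0 UMIs. Mepe and Fgf23 were at 0 in all 3 stages, and Sost was at 0, 0 and 1 UMI. Phex, an osteocyte and osteoblast peptidase, was 24.2, 2.18 and 6.22 CPM, and at E16.5 1 cell held 55.0% of it. Pdpn, podoplanin, which early osteocytes share with other stromal cells, was 10.9, 19.7 and 25.9 CPM in 7, 12 and 16 cells, below the 33.1, 29.1 and 42.4 CPM of the other stromal cells. Irx5, an Iroquois transcription factor, was 33.9, 24.0 and 21.8 CPM in 7, 10 and 9 cells, against 13.2, 10.5 and 5.25 CPM. Of 4 osteocyte genes with enough counts (8 listed), 1 (Pdpn) was at least 2-fold higher at P0 than at E16.5 and 1 (Phex) lower, with a median of 0.679, beside 8.21% and 7.64% of all genes.

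**Figure D2:**
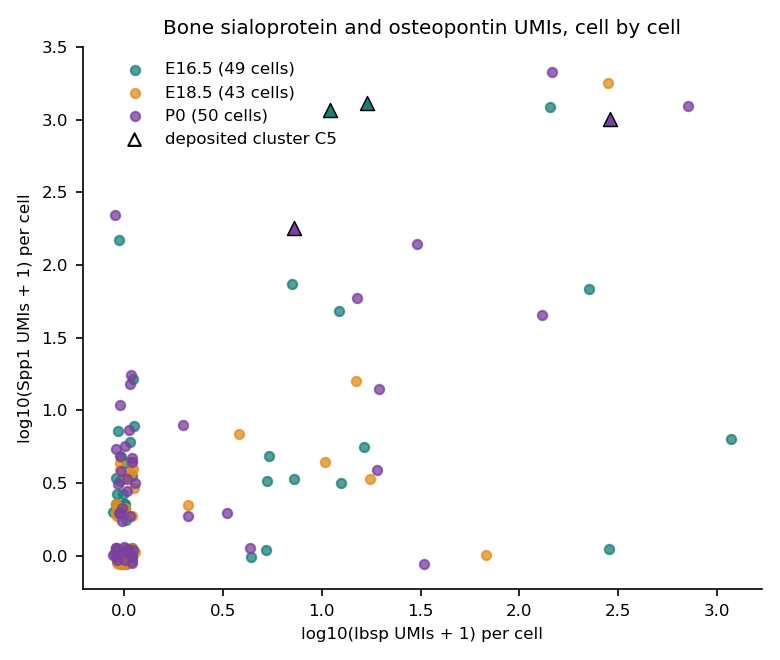
Each point is 1 of the 142 perinatal cells, placed by its Ibsp and Spp1 UMIs as log10(UMIs + 1), with slight jitter and coloured by stage; triangles lie in the deposited cluster C5. Most cells sit at the lower left, and few carry high counts of either gene or both.

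Cell by cell, Ibsp and Spp1 did not go strictly together. Of the 142 cells, 9 held 100 or more Ibsp UMIs and 11 held 100 or more Spp1 UMIs. In 5 of those 11 Ibsp was below 20 UMIs. At E16.5 the 2 cells in cluster C5 had 1160 and 1501 Spp1 UMIs with 9 and 17 of Ibsp, and they were the only cells of that stage with Dmp1, at 7 and 29 UMIs. At the other end, 2 cells of E16.5 had 1039 and 270 Ibsp UMIs with 5 and 0 of Spp1, and neither had a Dmp1 UMI. Of the 20 cells with 5 or more Ifitm5 UMIs, 14 had 10 or more Ibsp UMIs, among 21 such cells in all.

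To look at these cells together, each cell, thinned to 2000 UMIs, was placed by its summed UMIs of Ibsp, Bglap and Bglap2 in 1 of 3 ranges, none, 1 to 9, and 10 or more. These are ranges of a score, not cell types, and the highest rests on Ibsp: with Ibsp left out, 0% of the perinatal cells reached it. The highest range held 4 of 49 cells at E16.5 (8.16%, 2.27 to 19.6), 1 of 43 at E18.5 (2.33%, 0.0589 to 12.3) and 5 of 50 at P0 (10.0%, 3.33 to 21.8), with overlapping intervals. In the adult it held 169 of 243 (69.5%, 63.3 to 75.3). At each perinatal stage 36 cells held none of these UMIs after thinning. Within 8 to 11 thinned UMIs, close to the upper limit, lay 1 perinatal and 16 adult cells. Of the 10 perinatal cells in the highest range, 9 lay in F2 and 1 in C5. They were deeper than the cells with none, with median UMI counts of 19654 and 13967 at E16.5, 29021 and 22174 at E18.5, and 22808 and 18262 at P0.

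Several genes that the ranges did not use were higher when summed over the 10 cells. Summed over the stages, Ifitm5 was 50.3, 153 and 1031 CPM and Smpd3, a sphingomyelinase needed for mineralization, 57.1, 199 and 865 CPM in the cells with none, the middle and the highest range, and further values follow in this order. Spp1 was 349.7, 7030.4 and 30550.5 CPM, with a median of 1, 2.5 and 643.5 UMIs per cell. The middle value of Spp1 rests on the 2 cells of E16.5 in C5, without which it was 606 CPM, and the same 2 cells held all 36 Dmp1 UMIs of that range. Col1a1 was 9579, 11168 and 19207 CPM. Pth1r, the receptor for parathyroid hormone, was 194, 306 and 558 CPM. Tcf7 was 19.0, 19.4 and 97.0 CPM and was seen in 9 of the 10 cells. Vdr, the vitamin D receptor, was 3.42, 0 and 68.7 CPM, from 6, 0 and 7 cells. Tgfb1 was 60.6, 89.8 and 283 CPM and Cd200 32.2, 84.9 and 303 CPM. In each of the 3 libraries Pth1r, Tgfb1 and Cd200 were higher in the highest range than in the cells with none, where E18.5 gives 1 cell. For Smpd3 that cell went the other way, at 34.5 against 74.4 CPM.

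Other genes were low in the highest range. Postn, periostin of the periosteum and fibrous matrix, was 2292, 2427 and 178 CPM, and 1 cell held 70.5% of the UMIs in the highest range. Aspn, a small leucine-rich proteoglycan, was 2147, 2487 and 416 CPM and lay in 2 of the 10 cells. Ptn, pleiotrophin, was 2063, 1861 and 154 CPM. Col12a1, a fibril-associated collagen, was 1382, 1740.0 and 400.2 CPM, and Mgp, an inhibitor of calcification, 1206, 561 and 275 CPM. Igf1 was 133, 60.7 and 4.04 CPM, Igf2 145, 131 and 12.1 CPM and Tgfb2 121, 107 and 20.2 CPM, so that Tgfb1 and Tgfb2 stood in opposite order across the ranges. Fgfr2 was 231, 255 and 76.8 CPM. Runx2 itself, part of the choice, was 206, 194 and 295 CPM, and Alpl was 285, 519 and 445 CPM. These ratios come from 10 cells of 3 libraries and carry no test.

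**Figure D3:**
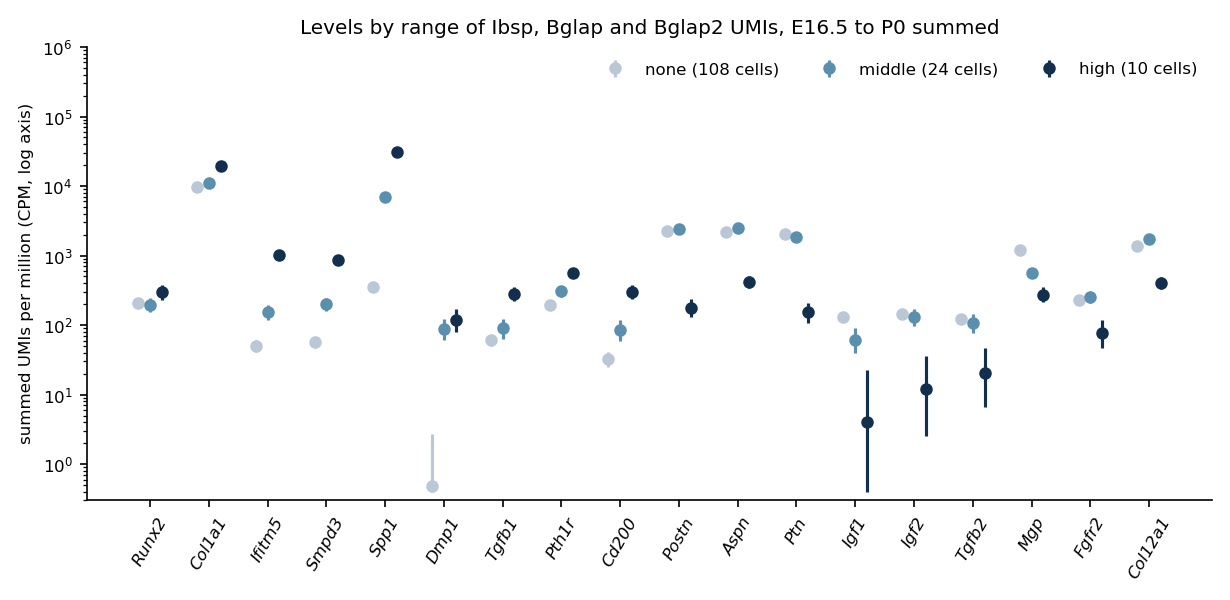
Levels of 18 genes as CPM on a log axis, with exact Poisson 95% intervals, in perinatal cells with no (108 cells), 1 to 9 (24 cells) or 10 or more (10 cells) UMIs of Ibsp, Bglap and Bglap2 after thinning. Over the summed stages Ifitm5, Smpd3 (not in the single E18.5 cell) and Spp1 are higher and Postn, Aspn, Ptn, Igf1, Igf2 and Tgfb2 lower in the highest range.

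Mmp13, a collagenase made by late cartilage and by osteoblasts, was concentrated in single cells. It was 41.1, 539.5 and 197 CPM, against 0.233, 0.296 and 2.30 CPM in the other stromal cells. At E18.5 the cell with most Mmp13 held 451 UMIs, 91.3% of the stage's total, and was also the cell with 258 Ibsp and 1564 Spp1 UMIs. At P0 the cell with most, 75 UMIs, also held 637 of Ibsp and 1272 of Spp1. Over the 142 cells, 11 had 5 or more Mmp13 UMIs, and 5 of these had 10 or more Ibsp UMIs. Col10a1, the collagen of hypertrophic cartilage, was 4.84, 2.18 and 9.33 CPM, and Ihh was at 3, 0 and 0 UMIs.

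Some cells in the highest range carried cell cycle UMIs as well. In 3 of the 10 cells the 8 cycle genes summed to 136, 145 and 66 UMIs. After thinning to 2000 UMIs, 2 or more UMIs of the 8 genes were found in 12 of 49 chosen cells at E16.5 (24.5%, 13.3 to 38.9), 10 of 43 at E18.5 (23.3%, 11.8 to 38.6) and 8 of 50 at P0 (16.0%, 7.17 to 29.1). The other stromal cells gave 11.0%, 10.4% and 8.81%, the other F2 cells 11.6%, 11.9% and 5.10%, and the adult chosen cells 4 of 243 (1.65%, 0.450 to 4.16). The unthinned levels lay in the same order: Top2a was 429, 346 and 181 CPM and 12.5 CPM in the adult cells. Thinning came after the choice, which took cells with more UMIs. Medians before thinning were 15590, 21884 and 18071 UMIs in the chosen cells and 9958, 12897 and 12596 in the other F2 cells. The part that this plays in the shares was not tested. Of the 8 genes, 2 (Top2a and Birc5) were at least 2-fold lower at P0 than at E16.5 (all genes 7.64%), with a median of 0.594, and all 8 were lower in the adult than at P0, beside 6.31% of 9953 genes. Among the 10 genes lower at P0 with the largest ratios, histone genes Hist1h3c, Hist1h1b, Hist1h4d and Hist1h1e led, at 17.3, 7.82, 6.59 and 3.91-fold, and Pclaf, Ppid, Ezh2, Srsf7, Tyms and Topbp1 followed. Hist1h1b was 519, 331 and 66.4 CPM, against 152, 46.3 and 38.9 CPM in the other stromal cells and 213, 122 and 47.0 CPM in the other F2 cells, so it was lower at P0 than at E16.5 in all of these, and 5 cells held 75.5% of the E16.5 UMIs of the chosen cells.

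**Figure D4:**
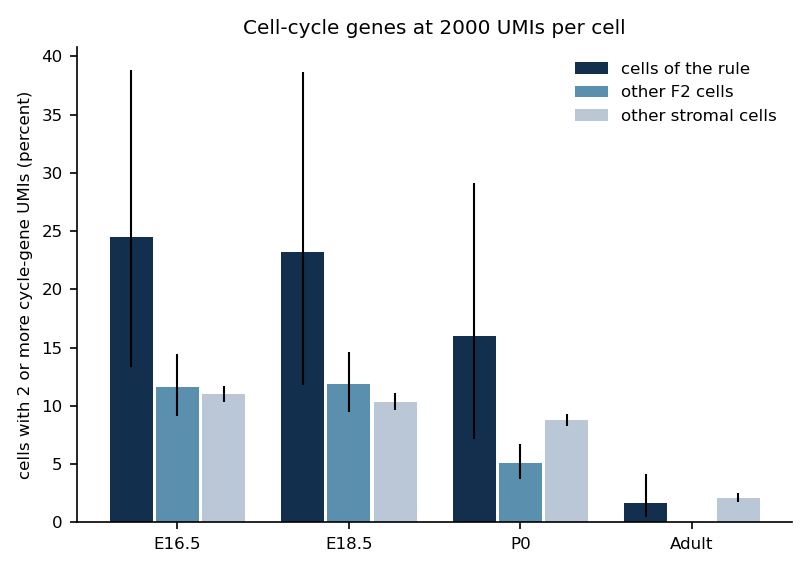
Share of cells with 2 or more UMIs of 8 cell cycle genes after thinning to 2000 UMIs per cell, in percent, with exact Clopper-Pearson 95% intervals, for the chosen cells, other F2 cells and other stromal cells. The chosen cells stand at 24.5%, 23.3% and 16.0% before and at birth and at 1.65% in the adult.

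Among genes with at least 100 CPM at P0 and E18.5 in between, the 10 with the largest P0 to E16.5 ratios began with Fabp4, Tagln and Mt1, which had 1, 3 and 7 UMIs at E16.5. Their ratios were 90.0 (15.8 to 3588), 29.1 (9.70 to 143.7) and 21.3 (10.1 to 53.8), with exact 95% counting intervals. The others were Klf9 (8.31-fold), 3110079O15Rik (7.27-fold), Neat1 (7.26-fold), Tnfaip6 (7.00-fold), Comp (6.41-fold), Tsc22d3 (5.50-fold) and Dusp1 (5.45-fold). Tsc22d3 was 58.1, 145 and 319 CPM, in 26, 37 and 46 cells. In the other stromal cells of the same libraries it stood at 65.0, 138 and 250 CPM, in the same order of stages. Klf9 was 15.7, 66.6 and 131 CPM against 72.5, 177 and 193 CPM in the other cells, and Dusp1 33.9, 76.4 and 185 CPM against 164, 238 and 245 CPM, so both were lower in the chosen cells at each stage and higher at P0 than at E16.5 in both. A single cell held 95.2% of the P0 UMIs of Fabp4, 65.5% of those of Mt1 and 51.6% of those of 3110079O15Rik, without which the P0 levels were 5.35, 63.4 and 127 CPM against 1.21, 8.47 and 35.1 CPM at E16.5. For the other 7 genes that share was 5.84% to 34.0%.

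Of 11 niche genes with enough counts (15 listed), 3 were at least 2-fold higher at P0 than at E16.5 (Igf1, Tgfb2 and Ptn) and 2 lower (Angpt1 and Vcam1), beside 8.21% and 7.64% of all genes, with a median of 1.48. Ptn was 846, 2367 and 2242 CPM, against 534, 343 and 485 CPM in the other stromal cells. The other F2 cells had 1376, 1549.6 and 1178 CPM, above the chosen cells at E16.5 and below them later. Igf1 was 35.1, 118 and 167 CPM, below the 197, 133 and 213 CPM of the other cells at each stage, and it lay in 13, 16 and 28 cells. Igf2, an imprinted fetal growth factor, was 157, 121 and 117 CPM and 2 UMIs in all adult cells together. Cxcl12, the chemokine that retains hematopoietic stem cells, was 18.1, 32.8 and 30.1 CPM, below the 48.1, 42.2 and 55.1 CPM of the other stromal cells, and 1692 CPM in the adult cells. Kitl, which encodes stem cell factor, was 21.8, 15.3 and 13.5 CPM and 90.1 CPM in the adult cells. Il7 was at 0, 1 and 0 UMIs, and Thpo at 1, 0 and 0. The adult values include 50 cells of the cluster coded CARs.

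Of the 9 progenitor genes with enough counts (11 listed), 4 were at least 2-fold higher at P0 than at E16.5 (Postn, Aspn, Thy1 and Cd200) and 0 lower, beside 8.21% and 7.64% of all genes, with a median of 1.20. Their ratios were 2.51, 2.22, 3.05 and 2.45 in the chosen cells and 1.97, 2.06, 1.85 and 3.24 in the other stromal cells. Postn was 997, 2734 and 2499 CPM and Aspn 1319.7, 1755 and 2930.2 CPM. Ly6a, which encodes Sca-1, was at 0, 1 and 2 UMIs. Tnfsf11, the osteoclast differentiation factor RANKL, was 13.3, 16.4 and 22.8 CPM, from 11, 15 and 22 UMIs, against 0.319, 0.654 and 1.55 CPM in the other cells. Its decoy receptor Tnfrsf11b was 10.9, 26.2 and 17.6 CPM. Of 11 tested receptor and signalling genes, 0 were past 2-fold between P0 and E16.5 in either direction, and Pth1r was 221, 247 and 261 CPM.

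Against all other stromal cells of their libraries, 161 of 4883 genes (3.3%) were at least 2-fold higher in the chosen cells in all 3 libraries and 183 (3.75%) lower. The choice by Runx2, Sp7 and collagens bears on this contrast, so the counts are descriptions. Without the genes that the choice used, the listed genes among the higher ones were 4 of 5 tested transcription factors, 7 of 13 collagen genes, 3 of 9 mineral genes and 4 of 8 cycle genes, and 11 of 12 chondrocyte genes were among the lower ones. Of the remaining listed genes Irx5, Fgfr2, Tgfb1, Prrx1, Aspn and Mmp13 were higher and Mgp, Sfrp1, Col10a1, Myog, Cspg4 and the fibroblast genes Dpt, Clec3b and Cd34 lower. These counts changed once cells with more Col2a1 than Col1a1 were left out of the others, when 77 of 5018 genes (1.53%) were higher and 182 (3.63%) lower. Then 2 of 5 transcription factors (Dlx5 and Dlx6), 1 of 13 collagen genes (Ifitm5), 5 of 9 mineral genes, 3 of 8 cycle genes and 1 of 9 chondrocyte genes (Sox6) were higher, and 0 chondrocyte genes lower. Tgfb1, Cd200, Pth1r, Fgfr2 and Ptch1 were also higher, and Cxcl12, Kitl, Igf1, Pdpn, Sfrp1, Tnmd, Kera, Acta1, Dpt, Clec3b and Cd34 lower. Of the hypertrophic cartilage list (5 listed) 3 of 3 tested genes were higher, Mmp13, the channel protein gene Panx3, and Runx3, a relative of Runx2. Col10a1 and Ihh, also on that list, had too few counts in this contrast. Col10a1, lower against all other stromal cells, stood in those cells at 123 CPM at E16.5 and 31.6 CPM at P0.

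Against the other F2 cells 43 of 4834 genes (0.89%) were higher and 71 (1.47%) lower. There 4 of 9 mineral genes were higher (Alpl, Smpd3, Ibsp and Spp1) and 1 lower (Mgp), with a median of 2.58. The call of Spp1 rests on 1 cell at E18.5, without which its 58.6 CPM lay below the 78.5 CPM of the other F2 cells and the 89.7 CPM of all other stromal cells. Of 13 collagen genes 1 was higher, Ifitm5, and the median ratio over the 13 genes was 0.957. Of 8 cycle genes 0 were past 2-fold the same way in all 3 libraries, with a median of 2.39. The same 3 hypertrophic genes, the only ones of 5 listed with enough counts, were higher, with a median of 12.7. Of 12 chondrocyte genes 7 were lower. Dlx5, Dlx6, Tgfb1, Irx5, Cd200 and Pth1r were also higher, and Pdpn and Tnmd lower. Several genes far above the whole stroma were near the level of the other F2 cells. The semaphorin receptor Nrp2 was 8.19-fold to 11.8-fold above the other stromal cells and 1.49-fold to 2.43-fold above the other F2 cells. Tnn, tenascin-N, was 6.39-fold to 12.4-fold above the former and 0.644-fold to 1.85-fold the latter. Cdh11, the osteoblast cadherin, was 4.35-fold to 5.50-fold above the former and 0.959-fold to 1.31-fold the latter, in 47, 43 and 49 cells. Maf, Olfml3, Tmem119, Cnn2, Col8a1 and Aspn, the others with the largest ratios to the stroma, lay between 0.821-fold and 1.96-fold of the other F2 cells.

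Of the surface proteins, CD73 and CD140a were higher in the chosen than in the other perinatal cells. Of the 29 antibodies deposited for the whole series, 4 had a median above 0 in the chosen cells of some stage. Whether all 29 were used on the stromal cells is not known here, so a median of 0 was not read as absence. CD73, the ecto-5′-nucleotidase, had a lowest, median and highest count of 5, 95 and 583 at E16.5, 5, 154 and 1608 at E18.5, and 10, 92.5 and 1795 at P0. The medians of the other stromal cells were 23, 14 and 15, those of the other F2 cells 65, 25 and 42, and those of endothelial cells 8, 7.5 and 13. The chosen cells exceeded the median of the others in 38 of 49, 39 of 43 and 46 of 50 cases. In the adult the medians were 18 in the chosen and 21 in the other cells. The mRNA of CD73, Nt5e, was by contrast not higher in the chosen cells, with 0.435-fold to 0.831-fold the level of the others from 9, 34 and 49 UMIs.

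Among the chosen cells, CD73 was lower in those with the most Ibsp. Over the 3 stages its median count was 132.5 in the 108 cells with no Ibsp, Bglap or Bglap2 UMI after thinning, 51.5 in the 24 cells of the middle range and 18 in the 10 cells of the highest range. The counts of those 10 cells were 6, 12, 24 and 18 at E16.5, 5 at E18.5, and 28, 18, 38, 12 and 127 at P0. Within the stages the medians of cells with none and of the highest range were 110.5 and 15 at E16.5 and 134 and 28 at P0. The other stromal cells had medians of 23 at E16.5 and 15 at P0. The highest range thus lay below them at E16.5 and above them at P0. CD140a, the PDGF receptor alpha, had medians of 16, 3 and 5, against 3, 1 and 3 in the other stromal cells and 14, 1 and 4 in the other F2 cells, and 44 of 49, 26 of 43 and 32 of 50 chosen cells lay above the median of the others. Sca-1 (4, 4 and 15) and CD31 (2, 1 and 4) lay at or within 1 count of the others. Antibody counts are raw, and their depth differed between libraries.

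**Figure D5:**
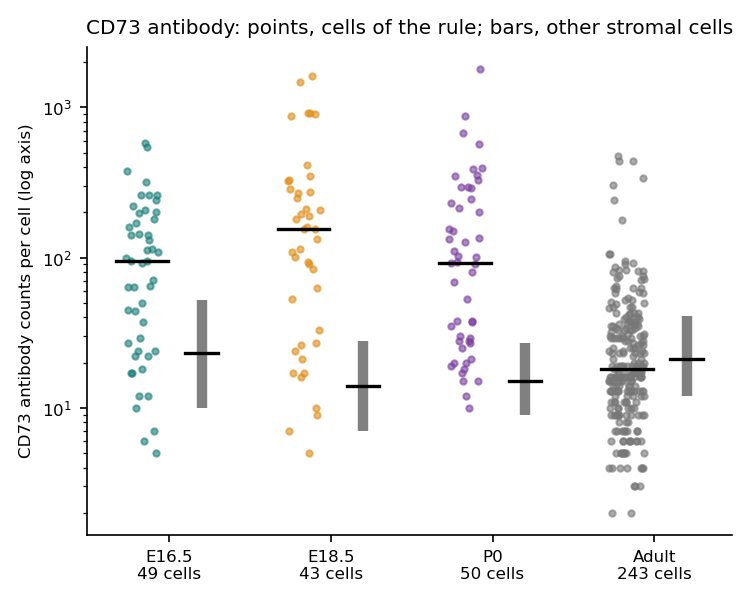
CD73 antibody counts per cell on a log axis, by stage. Points are the chosen cells with their median (line), and grey bars span the quartiles of the other stromal cells, also with their median; the chosen medians are 95, 154 and 92.5 in the perinatal libraries and 18 in the adult.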

How the data were processed

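The authors made 3′ single-cell and antibody-tag libraries, counted reads with CellRanger 3.1.0 on mm10 and deposited raw UMI counts per gene and cell and raw antibody counts. The deposited genes had been seen in at least 30 cells, and cells had at least 300 UMIs, under 7.5% mitochondrial UMIs, and fewer UMIs and genes than the 98th percentile, which was also the only treatment of doublets. The paper took contaminating blood cells out of the stromal objects it plotted, and whether this covers the deposited cells is not known here. Cluster codes came from the authors' deposited cell table, where the mitochondrial share is a fraction of a cell's UMIs.

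Counts were summed over cells with Python 3.11.15, numpy 2.4.6, scipy 1.17.1 and pandas 2.3.3, and figures were drawn with matplotlib 3.10.9. A gene counted as different at 2-fold with at least 20 counts in either group (against other cells, in each library, with the other cells scaled to the chosen cells' UMIs). Thinning drew UMIs without replacement, leaving out cells under 2000 UMIs (0.705%, 5.68% and 15.3% of cells at E16.5, E18.5 and P0). The counting and thinning steps were tested on simulated data. The conditions on cells and the 22 gene lists were chosen with earlier results of these data known. Beyond the lists, genes were named where they had the 10 largest P0 to E16.5 ratios each way (at least 100 CPM and 50 counts in the higher group, E18.5 in between), or the 15 largest lowest ratios to other stromal cells. Promoters are from RefSeq and gene positions from GENCODE M21. Results of 4 genes that fell under these rules are not reported here, and 1 of them was left out of its list.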

Additional observations from a re-analysis of the deposited data

How the results depend on the processing

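No paired analysis was possible because each stage had 1 library and no result comes from a test. The share of cells per stage followed the conditions. With 2 or more UMIs of Runx2 and Sp7 it was 0.802%, 0.949% and 0.419% at E16.5, E18.5 and P0, and with 5 or more it was 0.316%, 0.271% and 0.192%. Without the condition on collagens it was 4.80%, 6.78% and 3.00%. Thinned to 2000 UMIs it was 0.0122%, 0.0160% and 0.0168%, and to 5000 UMIs 0.0751%, 0.130% and 0.0725%. The thinned shares rest on 1 to 8 cells, with intervals that overlap between the stages.

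The numbers of genes higher and lower at P0 than at E16.5 were 86 and 81 after thinning and 2760 and 2465 without a minimum count. Without cells holding markers of another lineage they were 412 and 571. Against the other stromal cells, 77 genes were higher once cells with more Col2a1 than Col1a1 were left out, and 36 were higher and 73 lower at 4-fold. With Ibsp left out of the ranges, 0% of cells reached the highest range at each perinatal stage. Of the shares, counts of genes and ranges under all alternatives, 25 stayed within the interval of the reported share or within 1.5 times the reported count, and 24 did not. Of the values of single genes between P0 and E16.5 under these alternatives, 253 lay within the counting interval of the reported ratio and 67 did not, and no 2-fold difference changed direction. Leaving out cells with any Col2a1 UMI gave no stage value, since 3, 0 and 0 cells remain, and no perinatal cluster reached the planned share of 20% chosen cells. The comparison with other F2 cells, cells of F2 alone, a minimum of 2 UMIs for the stage levels, levels without the top cell, the middle range without the C5 cells of E16.5, and leaving out mixed cells for the ranges and the contrast with other cells were added after seeing the data.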
